A study of Mus musculus with 16 samples.

Results

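The 9 genes described here, Bach2, Klf2, Foxo1, Lef1, Tcf7, Satb1, S1pr1, Ccr7 and Il7r, are genes that resting T cells express and that are associated with the naive or quiescent state. They were taken by name from a list that was drawn up with earlier results of these data known. The array carried 12 probes for them, against 55681 probes in all, and 20660 genes had a named probe. All 9 genes were among the 14674 genes tested, and all 12 probes were well above background on all 16 arrays.

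RNA came from CD4+ T cells of the spleen, purified by a kit followed by flow sorting, and was hybridised to 1-colour Agilent arrays. The mice were males of 8 to 10 weeks, and every group carried CD4cre, a transgene in which the CD4 promoter drives Cre recombinase. The controls carried CD4cre alone (here Cre controls). The IKK2 knockout carried CD4cre with IKK2fl/fl, which removes the catalytic IkB kinase 2, and the NEMO knockout carried CD4cre with a floxed allele labelled NEMOfl/f, which removes the regulatory subunit of the same kinase complex. Because thymocytes already express CD4 before they choose a lineage, CD4cre acts in developing T cells as well as in the mature cells sampled. Each genotype was sampled with either no inflammation or nephrotoxic serum nephritis (NTN), an immune kidney disease induced by injecting 2.5 mg of sheep serum per g of body weight, with organs taken on day 10. There were 3 arrays in each of the 4 Cre and IKK2 groups and 2 in each of the 2 NEMO groups, so the number of arrays limits the precision. No label ties an array to an animal of its own. A p-value here therefore reflects the spread among the arrays of a group, and part or all of that spread may be technical.

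A naive T cell circulates between blood and lymphoid tissue until it meets its antigen. Transcription factors of the FOXO and KLF families hold it in a resting state and switch on the receptors that steer it: CCR7 into lymph nodes, S1PR1 out of them. TCF-1 (encoded by Tcf7), LEF-1, SATB1 and BACH2 maintain the naive programme and restrain effector differentiation, and the IL-7 receptor relays the survival signal that resting T cells depend on. On activation through the antigen receptor, these genes are typically turned down while adhesion, chemokine receptor and effector genes rise.

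The level of a probe is given here as log2 of its processed intensity minus the 75th percentile of its array, so 0 is the brightness of the probe at that percentile. A difference is called when its adjusted p is under 0.05 over all genes tested. In bulk RNA, fewer cells of a type and less RNA per cell cannot be told apart. All NEMO arrays lay on slide 3 and none of the others did, so slide and genotype cannot be told apart in any comparison of NEMO with Cre or IKK2. The untreated Cre arrays all lay on slide 2 with 1 untreated IKK2 array, and the other Cre and IKK2 arrays on slide 1. Untreated Cre array 1 and nephritic Cre array 2 stood apart from their groups in an earlier analysis of these arrays. Without both, 7 and 8 of the 9 genes were lower in the NEMO knockout and 1 and 1 in the IKK2 knockout, without and with nephritis. The mean over 10 markers of CD4 T cells, all above background, lay within -0.10 to 0.14 of the untreated Cre arrays on every array. Of single markers, 3 were lower and 1 higher in NEMO than in Cre mice without nephritis, and 4 were lower with it (median -0.17). The probe of Ikbkb, which encodes IKK2, read 2.88 to 3.31 in the untreated IKK2 knockout against 3.29 to 3.31 in the Cre controls, and 2.91 to 3.02 against 3.18 to 3.45 with nephritis. It was as low in the NEMO knockout, at 2.84 to 3.06 and 2.78 to 2.86. The brighter probe of Ikbkg, which encodes NEMO, read -0.94 to -0.74 in the untreated NEMO knockout against -0.85 to -0.52 in Cre mice, and -0.71 to -0.59 against -0.40 to -0.26 with nephritis. The dimmer one overlapped the controls in both conditions. The place of these probes relative to the deleted exons is unknown here, so they check nothing.

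Promoter sequences are shown for the transcription factor with the largest fall (Bach2), for the gene with a pattern of its own (Il7r) and for the members whose windows held a searched motif (Satb1 and Tcf7). They come from RefSeq on GRCm38.p6, each with 75 bases before and 25 bases from the start of transcription, in the direction of the gene, and capitals mark motif matches. The positions are chr4:32417360-32417459 (plus strand) for Bach2, chr15:9529852-9529951 (minus strand) for Il7r, chr17:51833266-51833365 (minus strand) for Satb1 and chr11:52282571-52282670 (minus strand) for Tcf7.
Bach2: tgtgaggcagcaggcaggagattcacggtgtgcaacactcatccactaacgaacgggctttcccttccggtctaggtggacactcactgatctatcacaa
Il7r: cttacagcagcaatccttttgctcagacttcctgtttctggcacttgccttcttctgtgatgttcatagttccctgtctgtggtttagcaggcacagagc
Satb1: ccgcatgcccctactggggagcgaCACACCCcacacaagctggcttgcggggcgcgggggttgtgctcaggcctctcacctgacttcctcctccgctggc
Tcf7: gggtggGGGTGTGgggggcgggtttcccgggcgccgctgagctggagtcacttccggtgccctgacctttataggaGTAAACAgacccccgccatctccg

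RefSeq gave 15 promoter windows for 7 of the 9 genes, each of 250 bases before and 50 bases after a start, and both strands were searched. The FOXO motif TGTTTAC was found in 1 of the 15 windows (Tcf7, on the other strand), and 3.65% of 32851 promoters held it. The KLF motif CACACCC was found in 2 windows (Satb1, and Tcf7 on the other strand), against 7.95% of promoters. The TCF and LEF motif CTTTGAT and the NF-kB motif GGANTTTCC were found in none of the 15 windows, against 3.73% and 1.25% of promoters. A match is a description of the letters and not a measured binding site.

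Without nephritis 7 of the 9 genes were lower in the NEMO knockout than in the Cre controls: Bach2, Foxo1, Lef1, Tcf7, Satb1, S1pr1 and Ccr7. Klf2 and Il7r did not pass the test. Among all genes tested, 22.0% were lower in this comparison. The median difference was -0.97 over the 9 genes and -0.06 over all genes. With nephritis 8 of the 9 genes were lower, all but Klf2, against a background of 29.6%, with a median of -1.34 against -0.14.

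**Figure D1:**
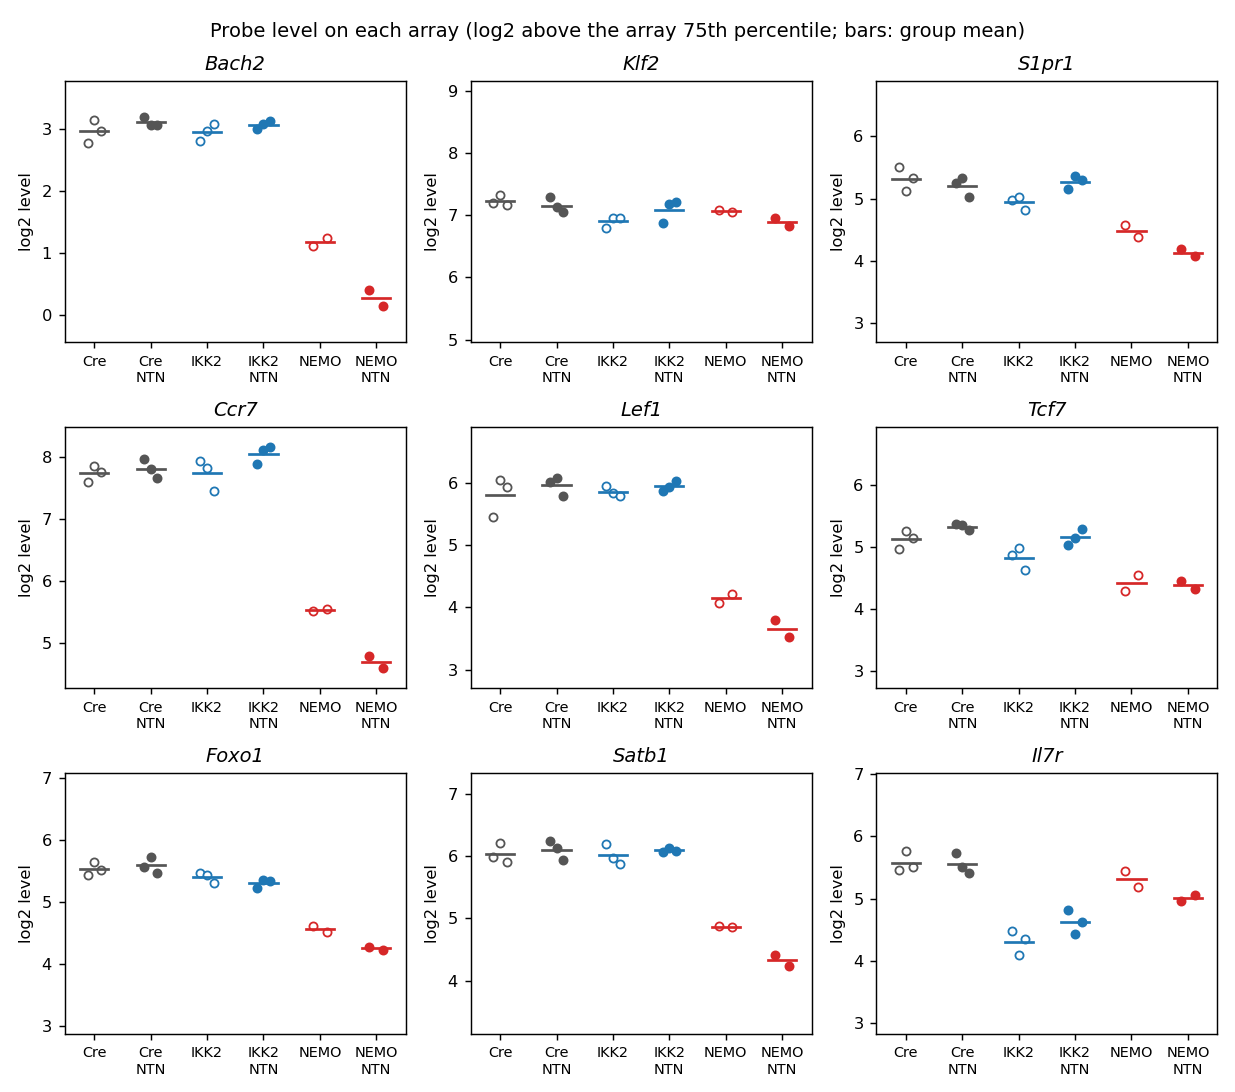
Level of the 9 genes on each of the 16 arrays (log2 processed intensity above the 75th percentile of the array, 1 panel per gene, each spanning the same number of log2 units). Circles are arrays (open, no inflammation; filled, nephritis), bars are group means, and the NEMO arrays lie below all Cre arrays for Bach2, S1pr1, Ccr7, Lef1, Tcf7, Foxo1 and Satb1, while the IKK2 arrays lie below all others for Il7r.

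Bach2 encodes a transcriptional repressor that holds back effector differentiation. Its level was 2.78, 3.14 and 2.97 on the untreated Cre arrays, and 1.12 and 1.25 on the untreated NEMO arrays. With nephritis it was 3.19, 3.07 and 3.06 on the Cre arrays, and 0.41 and 0.15 on the NEMO arrays. The NEMO arrays were the lowest in both conditions and did not overlap the controls. The difference was -1.78 without nephritis (SE 0.12, 3.43-fold lower, limma adjusted p = 1.04e-06) and -2.83 with it (7.09-fold lower, adjusted p = 5.58e-08). A dimmer second probe of Bach2 gave -2.07 and -2.87, with adjusted p over probes of 3.58e-06 and 4.31e-07.

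Foxo1 encodes the forkhead factor that activates Klf2, Il7r and Ccr7 in resting T cells. It stood at 5.43, 5.65 and 5.51 on the untreated Cre arrays, and at 4.61 and 4.51 on the untreated NEMO arrays. Under nephritis the Cre arrays gave 5.57, 5.73 and 5.47, and the NEMO arrays 4.28 and 4.23. No NEMO array reached the lowest control. The differences were -0.97 (SE 0.10, adjusted p = 1.44e-05) and -1.34 (adjusted p = 1.54e-06), that is 1.96-fold and 2.53-fold lower. The second Foxo1 probe gave -0.92 and -1.31.

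Lef1 and Tcf7 encode the paired HMG-box factors LEF-1 and TCF-1. Untreated Cre arrays had Lef1 at 5.45, 6.05 and 5.93, and untreated NEMO arrays at 4.07 and 4.22. Nephritic Cre arrays had it at 6.01, 6.08 and 5.80, and nephritic NEMO arrays at 3.79 and 3.53. The groups were separate in both conditions, with falls of -1.66 (SE 0.16, adjusted p = 9.39e-06) and -2.30 (adjusted p = 9.83e-07). For Tcf7 the untreated Cre arrays lay at 4.97, 5.26 and 5.14, and the untreated NEMO arrays at 4.30 and 4.55. Nephritic Cre arrays lay at 5.37, 5.35 and 5.27, and nephritic NEMO arrays at 4.45 and 4.33. The Tcf7 groups did not overlap either, and the differences were -0.70 (SE 0.13, adjusted p = 0.000874) and -0.94 (adjusted p = 9.95e-05). A second, dimmer Tcf7 probe gave -0.98 and -1.29. With normexp background correction the untreated Tcf7 difference was -0.43 and no longer passed (adjusted p = 0.0807).

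Satb1 encodes a chromatin organiser of the T lineage. Its untreated Cre arrays read 5.99, 6.22 and 5.91, against 4.87 and 4.86 in the NEMO knockout. Nephritic arrays read 6.25, 6.13 and 5.94 in Cre mice, against 4.41 and 4.24 in NEMO mice. All 4 NEMO arrays were below all 6 Cre arrays. The differences were -1.17 (SE 0.12, adjusted p = 1.95e-05) and -1.78 (adjusted p = 1.05e-06).

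Klf2, the Krüppel-like factor that activates S1pr1, behaved differently from the other transcription factors. The untreated Cre arrays had 7.20, 7.32 and 7.17, and the untreated NEMO arrays 7.08 and 7.06. Those with nephritis had 7.29, 7.13 and 7.05 in Cre mice and 6.95 and 6.83 in NEMO mice. The NEMO arrays were just below the controls in each condition. The differences did not pass the test, at -0.16 (95% interval -0.40 to 0.08, adjusted p = 0.274) and -0.27 (interval -0.51 to -0.03, adjusted p = 0.0646). The sign of the Klf2 difference depends on the scaling: quantile normalization gave 0.29 without nephritis (adjusted p = 0.028) and 0.07 with it.

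Among the receptors, Ccr7, the chemokine receptor for entry into lymph nodes, had the largest falls of the 9 genes in both conditions. It stood at 7.59, 7.85 and 7.76 on untreated Cre arrays, and at 5.52 and 5.55 on untreated NEMO arrays. With nephritis it stood at 7.97, 7.80 and 7.65 in Cre mice, and at 4.79 and 4.60 in NEMO mice. Every NEMO array was over 2 log2 units below the mean of its own controls. The differences were -2.20 (SE 0.15, 4.59-fold lower, adjusted p = 1.06e-06) and -3.11 (8.62-fold lower, adjusted p = 1.4e-07).

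S1pr1, the sphingosine 1-phosphate receptor for exit from lymphoid organs, read 5.51, 5.12 and 5.33 on untreated Cre arrays and 4.57 and 4.38 on untreated NEMO arrays. The nephritic arrays read 5.25, 5.33 and 5.03 in Cre mice and 4.19 and 4.07 in NEMO mice. The groups did not overlap in either condition. The differences were -0.84 (SE 0.13, adjusted p = 0.000262) and -1.08 (adjusted p = 4.29e-05).

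Il7r encodes the alpha chain of the IL-7 receptor. Its untreated Cre arrays were at 5.46, 5.76 and 5.51, and the untreated NEMO arrays at 5.44 and 5.18. The nephritic Cre arrays were at 5.74, 5.51 and 5.41, and the nephritic NEMO arrays at 4.96 and 5.05. Both NEMO arrays lay below the lowest control in each condition, 1 of the untreated ones only just (5.44 against 5.46). The difference without nephritis was -0.27 (95% interval -0.60 to 0.07, adjusted p = 0.184). The difference with nephritis was -0.55 (SE 0.15, adjusted p = 0.0115), which became 0.0739 without nephritic NEMO array 1.

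In the IKK2 knockout most of the 9 genes lay near their control level. Without nephritis Il7r and S1pr1 were lower, 2 of 9 genes against a background of 4.53% lower genes. With nephritis Il7r alone of the 9 was lower, against 1.59% of all genes. The median over the 9 genes was -0.13 without nephritis, where that of all genes was 0.05, and -0.03 with it, where all genes had -0.03. Of the genes called in the second comparison, 61.5% were lower, and 48.5% when the scaling percentile was taken over probes above background on all arrays. The Cre controls are shared by the comparisons of both knockouts.

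Il7r had the clearest IKK2 difference of the 9 genes. The untreated IKK2 arrays read 4.47, 4.09 and 4.35, and the nephritic IKK2 arrays 4.81, 4.43 and 4.63. All 6 were below all 6 Cre arrays and below all 4 NEMO arrays. The differences from Cre were -1.27 without nephritis (SE 0.14, 2.42-fold lower, adjusted p = 0.000389) and -0.93 with it (SE 0.14, 1.90-fold lower, adjusted p = 0.00606). With slide as a block they were -1.23 (adjusted p = 0.00958) and -0.93 (adjusted p = 0.0082). On the slide that held both groups alone they were -1.23 (adjusted p = 0.0769) and -0.93 (adjusted p = 0.0782). The first sets 3 Cre arrays against 1 IKK2 array, which is assumed to vary like the Cre arrays, and the second sets 3 against 3.

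S1pr1 in the untreated IKK2 knockout read 4.97, 5.02 and 4.82, all below the 3 untreated Cre arrays, a difference of -0.38 (SE 0.11, adjusted p = 0.0437). It passed in 4 of 18 alternatives, and with slide as a block it was -0.50 (adjusted p = 0.105). With nephritis S1pr1 read 5.16, 5.36 and 5.29, overlapping the controls, with a difference of 0.07 (95% interval -0.18 to 0.31).

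The other members showed how narrow the IKK2 differences were. Bach2 read 2.81, 2.96 and 3.08 without and 3.0, 3.08 and 3.13 with nephritis, for differences of -0.01 (95% interval -0.24 to 0.23) and -0.03 (-0.27 to 0.20). Satb1 differed by -0.02 (interval -0.27 to 0.22) without nephritis and Lef1 by 0.06 (-0.25 to 0.37). These intervals leave out falls of the size seen in the NEMO knockout. Ccr7 differed by 0.24 with nephritis (interval -0.05 to 0.53). Klf2 lay at 6.80, 6.96 and 6.96 on the untreated IKK2 arrays, below every untreated Cre array. Its difference of -0.32 just missed the threshold (adjusted p = 0.0501). It passed when the scaling percentile was taken over above-background probes (0.0381) or the mean of all probes of a gene was used (0.0491). Klf2 has 1 probe, so the last change came only through the values of other genes. Tcf7 (-0.29, adjusted p = 0.101, without nephritis) and Foxo1 (-0.28, adjusted p = 0.13, with nephritis) did not pass either.

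**Figure D2:**
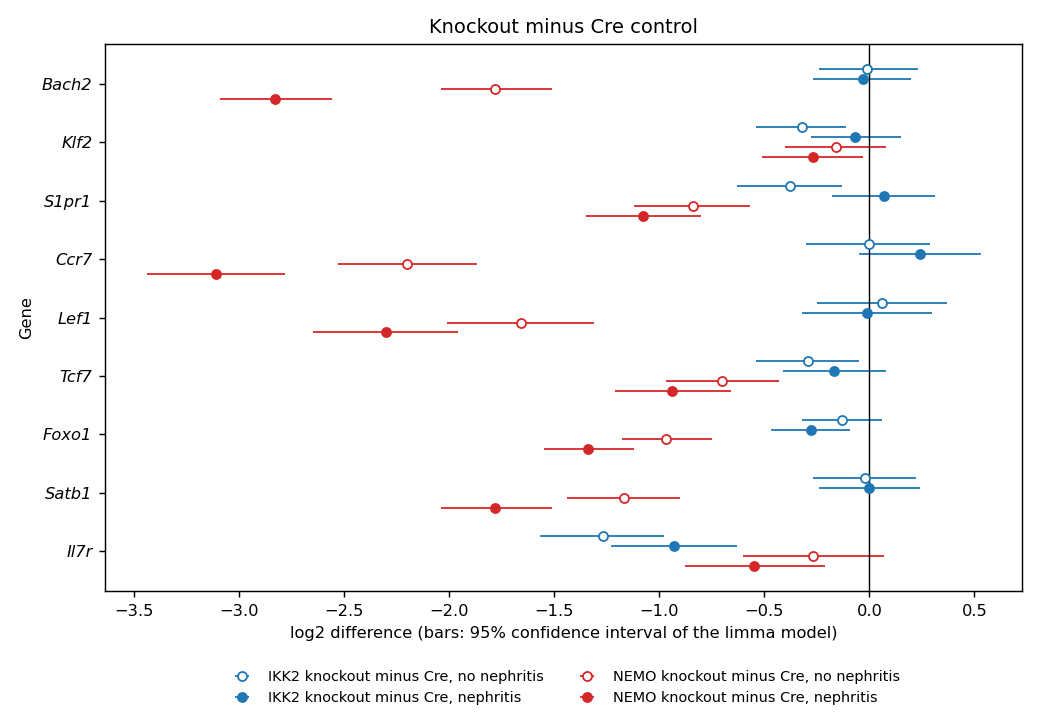
Difference of each knockout from the Cre controls for the 9 genes (x axis, log2 difference; points, limma estimates; bars, 95% confidence intervals; open, no inflammation; filled, nephritis). The NEMO knockout (red) reached -3.11 for Ccr7, whereas the IKK2 knockout (blue) stayed between -0.38 and 0.24 for every gene but Il7r.

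The knockouts were also compared with each other directly, a comparison in which slide and genotype cannot be told apart. Without nephritis 7 of the 9 genes were lower in the NEMO than in the IKK2 knockout, against 19.9% of all genes, and Il7r was higher, against 15.4% higher genes. With nephritis the same 7 genes were lower, against 27.2% of all genes. Bach2 was 3.41-fold lower without and 6.92-fold lower with nephritis (differences -1.77 and -2.79, adjusted p = 3.25e-06 and 6.49e-08). Ccr7 was 4.59-fold and 10.2-fold lower (-2.20 and -3.35). Il7r was 2.01-fold higher in the NEMO knockout without nephritis (1.01, SE 0.15, adjusted p = 0.000384), and 0.38 higher with it, which did not pass (adjusted p = 0.0615). Klf2 differed by 0.16 (adjusted p = 0.28) and -0.20 (adjusted p = 0.156). The untreated S1pr1 difference, -0.46, was not called without untreated NEMO array 2 (adjusted p = 0.131), and the untreated Tcf7 difference, -0.41, was not called without untreated NEMO array 1 (adjusted p = 0.23) or untreated IKK2 array 1 or 2 (0.0602 and 0.0822).

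Ordered by group mean, 6 of the 9 genes had the same split: Bach2, Ccr7, Lef1, Foxo1, Satb1 and Tcf7 had the 4 Cre and IKK2 groups first, each overlapping its neighbour, and then the 2 NEMO groups. The untreated NEMO arrays of these genes did not reach the lowest of the other groups' arrays in that order, and the nephritic NEMO group was lowest, overlapping the untreated one for Tcf7 alone. For S1pr1 the untreated IKK2 group stood apart between the others and NEMO. Il7r ran from Cre through NEMO to IKK2, and Klf2 ranged from 6.89 to 7.23 in group mean with the untreated NEMO and untreated IKK2 arrays as the 1 pair of neighbours that did not overlap.

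None of the 9 genes passed the test for nephritis in the Cre controls, where 4.03% of all genes changed in either direction. The count behind that share, 591 genes, was not stable. Without untreated Cre array 1, 2 or 3 the count was 111, 270 or 198. Without nephritic Cre array 1, 2 or 3 it was 843, 198 or 225. It was 63 without the 2 arrays that stood apart, 2 with slide as a block and 0 in a fit of only the arrays compared. Changes of background correction, scaling or probes gave 167 (normexp) to 554 (quantile normalization) genes. At an unadjusted p under 0.05 the limma count was 0 of 9 genes, and 3622 of all genes. The differences ran from -0.12 for S1pr1 to 0.20 for Tcf7, and the 2 groups lay on different slides. In the IKK2 knockout none passed either, against 0.443% of all genes, and 4 of the 9 had an unadjusted p under 0.05, with 2192 of all genes. Those 4 were S1pr1 (0.33), Tcf7 (0.33), Il7r (0.33) and Ccr7 (0.31), with adjusted p from 0.192 to 0.298.

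In the NEMO knockout Bach2 was lower with nephritis, 1 of 9 genes against 0.348% of all genes. The 4 arrays were all on slide 3. Bach2 dropped from 1.12 and 1.25 to 0.41 and 0.15, groups that did not overlap, a difference of -0.91 (SE 0.13, 1.87-fold lower, adjusted p = 0.0105). The second probe gave -0.96 (adjusted p over probes = 0.0498). Ccr7 went from 5.52 and 5.55 to 4.79 and 4.60, a difference of -0.84 that missed the threshold (adjusted p = 0.062), and Satb1 differed by -0.54 (adjusted p = 0.232). The median difference was -0.35 over the 9 genes and -0.02 over all genes. The 95% intervals of Klf2 (-0.45 to 0.09), Tcf7 (-0.34 to 0.26) and Il7r (-0.67 to 0.06) spanned both signs. An unadjusted limma p under 0.05 was reached by 6 of the 9 genes and by 935 of all genes. The Bach2 call was lost without untreated NEMO array 2 (adjusted p = 0.128) or nephritic NEMO array 2 (adjusted p = 0.137), and with normexp correction (adjusted p = 0.216).

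**Figure D3:**
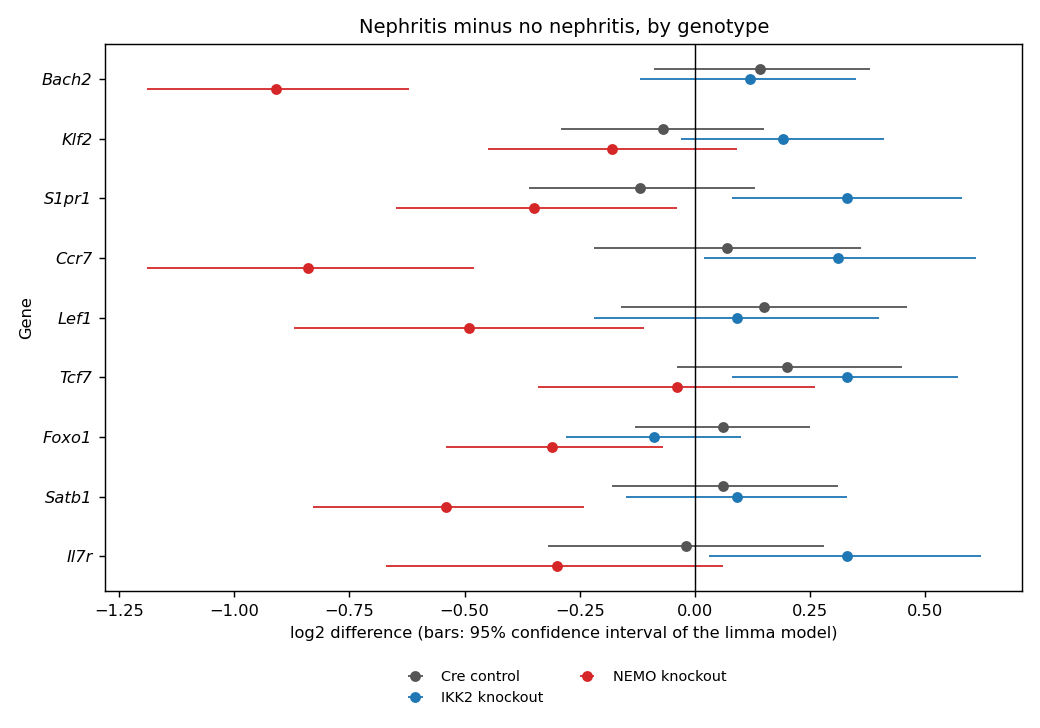
Nephritis minus no inflammation for the 9 genes in each genotype (x axis, log2 difference; points, limma estimates; bars, 95% confidence intervals). The NEMO knockout (red) lies at -0.91 for Bach2 and -0.84 for Ccr7, while the Cre controls (grey) and the IKK2 knockout (blue) lie between -0.12 and 0.33 for every gene.

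The response to nephritis was compared between genotypes as a difference of differences. It was lower in NEMO than in Cre mice for Bach2, 1 of 9 genes against 0.252% of all genes (-1.05, SE 0.17, adjusted p = 0.038), and lower than in IKK2 mice for Bach2, 1 of 9 against 0.232% (-1.02, SE 0.17, adjusted p = 0.0424). These calls passed in 2 of 21 and 6 of 20 alternatives, with adjusted p up to 0.359 and 0.272. The second Bach2 probe gave -0.79 (adjusted p over probes = 0.321) and -1.09 (0.0691). For Ccr7 the differences of response were -0.91 (adjusted p = 0.189) and -1.15 (adjusted p = 0.0545). Against Cre mice an unadjusted limma p under 0.05 was reached by 5 of the 9 genes and by 1480 of all genes. Against IKK2 mice it was reached by 7 of the 9 and by 1580 of all genes. Between IKK2 and Cre mice the limma test called 0 of the 9 genes, against 1.13% of all genes in either direction, and an unadjusted p under 0.05 was reached by 1 of 9 (S1pr1, 0.45) and by 2927 of all genes.

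Other genes of the resting programme were listed with earlier results of these data known. Over all genes, 22.0% were lower and 21.0% higher in NEMO than in Cre mice without nephritis, and 29.6% and 18.8% with it. For IKK2 against Cre mice these shares were 4.53% and 10.0% without nephritis, and 1.59% and 0.995% with it. Without the 2 arrays that stood apart, no list count below moved by more than 1 gene, an alternative chosen after seeing the data. Of 24 other naive and quiescence genes, 15 were lower and 0 higher than in Cre mice without nephritis (median -0.62), and 17 were lower and 1 higher with it (median -0.80). The other 9 and 6 genes were not called. Foxp1, a forkhead factor of quiescence, was lower (-1.34 and -1.54). Dapl1 and Als2cl, which mark naive T cells, had nephritis differences of -5.26 and -3.42, and Igfbp4 had -3.28. Tob1, a negative regulator of proliferation, was the 1 gene that was higher (0.44), and was not called without nephritic NEMO array 1 (adjusted p = 0.105). In the IKK2 knockout 1 of the 24 genes was lower (Foxp1, -0.25) and 2 were higher without nephritis, and 1 was higher with it; Igfbp4 was higher in both conditions, by 0.84 and 0.98. The Foxp1 call was lost without untreated Cre array 2 or 3 or any untreated IKK2 array (adjusted p 0.0546 to 0.102). The Igfbp4 call with nephritis was lost without nephritic Cre array 3 or nephritic IKK2 array 2 or 3 (0.0567 to 0.0728).

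Of 13 FOXO target genes, 4 of them members, 7 were lower in the NEMO knockout without and 9 with nephritis, and 0 were higher. Outside the 9 genes, Pik3ip1 (-2.09), an inhibitor of PI3 kinase, was lower with nephritis, as was Sesn1 (-1.85), a stress-induced inhibitor of mTORC1. Against Cre mice, 2 of the 13 were lower in the IKK2 knockout without nephritis and 1 with it. Those were members again: S1pr1 and Il7r, then Il7r alone.

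Family relatives of the 9 genes had counts near the shares over all genes in the NEMO knockout: of 15 tested among 16 listed, 5 were lower and 4 higher in the NEMO knockout without nephritis, and 4 and 4 with it. Tcf7l1 (-2.24), Klf13 (-1.01) and Klf7 (-0.83) were lower with nephritis. Tcf7l1 was dim, with group means of -3.23 in Cre and -5.47 in NEMO mice with nephritis, so its difference lies between low intensities. The sphingosine 1-phosphate receptor S1pr5, found on effector and NK cells, was higher (3.14), as were Klf10 (1.75) and S1pr2 (0.87). Of the same 15 relatives, 1 was lower (Klf7) and 2 higher (Klf10 and S1pr5) in the IKK2 knockout without nephritis, and 1 was lower with it (S1pr2). Each of these calls was lost when certain single arrays were left out. The limma adjusted p was then 0.0514 to 0.0549 for Klf7, 0.0719 to 0.101 for Klf10, 0.0535 to 0.0697 for S1pr5 and 0.0553 to 0.184 for S1pr2.

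In the IL-7 receptor pathway, 4 of 13 genes were lower and 4 higher in the NEMO knockout without nephritis, and 5 were lower and 2 higher with it, so these counts show nothing particular to the pathway. Bcl2, a survival gene downstream of the receptor, fell by 1.31 and 1.38. The feedback inhibitors split: Cish (1.57) and Socs2 (2.25) were higher with nephritis, and Socs3 (-0.90) lower. In the IKK2 knockout, where Il7r was lowest, 1 of the 13 genes was higher without nephritis and 3 with it, and 0 were lower; Bcl2 (0.91) and Socs3 (0.60) were among the 3, and the Socs3 call was lost without nephritic IKK2 array 2 (adjusted p = 0.0623) or 3 (0.0572).

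Activated and memory T cell genes went the other way in the NEMO knockout. Of 20 genes, 18 were higher and 1 lower without nephritis (median 2.46), and 19 were higher and 1 lower with it (median 2.49). Cd44, the adhesion receptor that marks antigen-experienced T cells, was higher by 1.93 and 2.04, and Ifng, the cytokine of type 1 effector cells, by 3.41 and 3.98. Lgals3 was higher by 4.49 and 3.49. Cxcr6 was higher with nephritis by 5.91 (SE 2.24), a value set by nephritic Cre array 2, which read -5.84 and was not well above background there. Without that array the difference was 2.58 (adjusted p = 0.0059), and without nephritic NEMO array 1 or 2 it was not called (0.142 and 0.149). Cd69, an early activation marker, was the 1 lower gene (-0.60 with nephritis). Loss of IKK2 went with 5 of the 20 higher without nephritis and 1, Cd69 (1.10), with it.

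**Figure D4:**
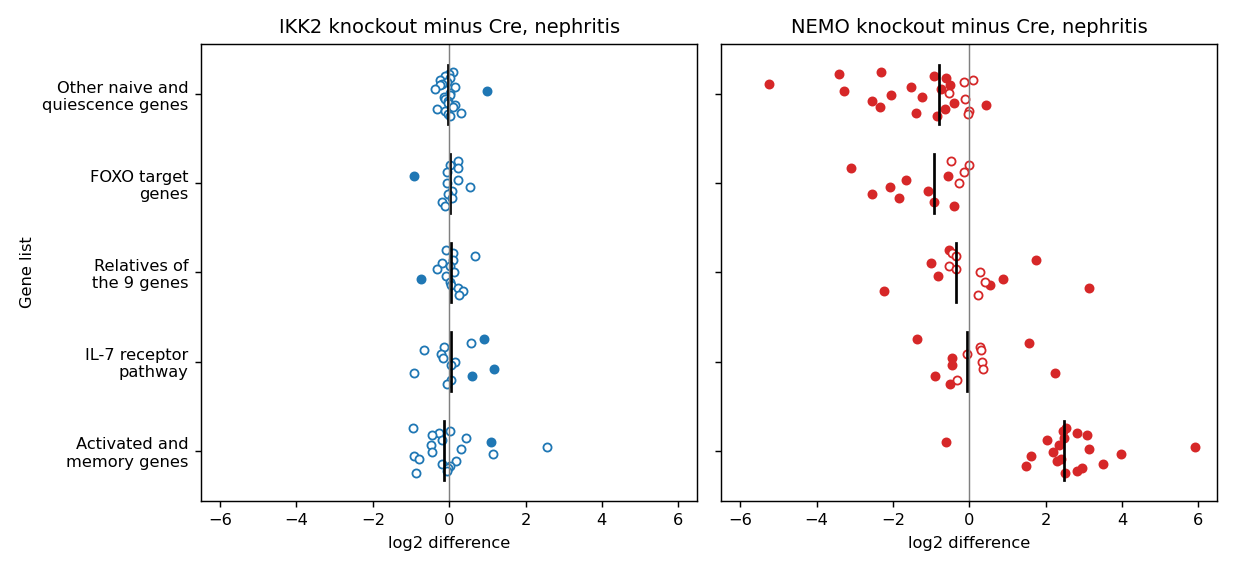
Difference from the Cre controls with nephritis for each gene of 5 lists (x axis, log2 difference; left, IKK2 knockout; right, NEMO knockout; filled circles were called, open circles were not; black bars are medians). In the NEMO knockout the median was -0.80 for the other naive and quiescence genes and 2.49 for the activated and memory genes, against -0.02 and -0.13 in the IKK2 knockout.

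Markers of other cells differed in level between the genotypes as well. The mean of 13 B cell markers relative to untreated Cre arrays was -0.16 to 0.23 on those arrays, 1.86 to 2.09 in the untreated NEMO and 2.05 to 2.55 in the untreated IKK2 knockout, with 12 and 13 of 13 markers above background. With nephritis it was 0.59 to 1.61 in Cre, 1.38 to 1.63 in NEMO and 1.59 to 2.08 in IKK2 mice. NK cell markers (4 of 4) were at 1.23 to 1.62 in untreated NEMO and 0.93 to 1.10 in untreated IKK2 mice, against -0.18 to 0.11 on untreated Cre arrays. With nephritis they were at 1.86 to 2.03 in NEMO and at 0.29 to 1.11 in IKK2 mice. In nephritic Cre mice they were at -0.24 to 1.05, which overlaps the IKK2 range. Regulatory T cell markers (5 of 5) were at -1.53 to -0.84 in untreated and -1.71 to -1.38 in nephritic IKK2 mice, and at 0.01 to 0.74 in the NEMO groups. The part of these cells in the differences of the 9 genes was not tested.

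Across the 36 pairs of members, Pearson's r over the 16 arrays ran from -0.11 (Ccr7 with Il7r) to 0.99, with a median of 0.87. Over the 12 Cre and IKK2 arrays it ran from -0.14 to 0.69, with a median of 0.44. The 5 other genes most like the mean of the 9 standardised levels over 16 arrays were Rwdd3, Sbsn, Arhgap15, Bcl11b and Nlk, at 0.98 each. Over the 12 arrays they were Ddx42 (0.98), Usp2 (0.96), Khdrbs1 (0.95), Dnajc19 and Cage1 (0.94 each). Arrays of a group share genotype and slide, so these values describe the arrays and carry no test.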

How the data were processed

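Per the file headers, Agilent Feature Extraction made the deposited processed intensity of each spot, with its background subtracted and spatial trend removed. The submitters' processing notes name version 10.5, which is lower than the version in the headers. The authors also deposited a log2 matrix by a method not given in the sources used here. With column medians of 5.65 to 5.68, it was used as an alternative. The deposited flags for outlier spots and for spots well above background served as filters. There were 62976 spots per array, and 59305 of these were no controls. Control and outlier spots (103 to 246 per array) were left out, spots of a probe were averaged, and the 75th percentile of log2 processed intensity over probes was subtracted from each array. On the linear scale that percentile was 237.1 to 419.4, and 48.9% to 59.8% of spots were well above background.

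Probes were named through their accession in a RefSeq table of assembly GRCm38.p6, which gave 27235 of 55681 probes a symbol and left 28446 without one. Promoter sequences came from RefSeq on the same assembly. A gene was represented by its brightest probe among the 34937 probes that at least 2 arrays showed well above background. The 6 group means were fitted to all 16 arrays with limma 3.58.1 in R 4.3.3 (lmFit, eBayes, 11.8 total degrees of freedom), with Benjamini-Hochberg adjustment over 14674 genes. The script was tested on simulated data.

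The 9 genes, the 5 gene lists and the marker lists were chosen with earlier results of these data known. From each gene list the text names the 3 largest falls and rises in NEMO against Cre mice with nephritis, and Cd44 and Foxp1; 1 gene under this rule is not reported here. Replicate numbers were checked as pairs: deviations of same-numbered arrays correlated at -0.20 to 0.13 over 36 pairs of arrays, so the numbers were not taken to pair the arrays. Alternatives changed the background correction, the scaling, the probe filter, the probe used, the block and the arrays included. Normexp used the median spot signal. A slide block for comparisons with NEMO arrays, and leaving out arrays for the gene lists and their named genes, were chosen after seeing the data.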

Additional observations from a re-analysis of the deposited data

Results flagged for a closer look

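The response of Bach2 to nephritis differed between genotypes by a test of the difference itself in the chosen setting, but in 2 of 21 and 6 of 20 alternatives only. It was lower by 1.05 on the log2 scale in NEMO than in Cre mice (-1.05, limma adjusted p = 0.038) and also in NEMO than in IKK2 mice (-1.02, adjusted p = 0.0424), with 2 nephritic NEMO arrays below both untreated ones. With a replicate block the adjusted p was 0.0826 and 0.0692, and for the second probe, over probes, 0.321 and 0.0691. The nephritic and untreated Cre arrays lay on different slides.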

How the results depend on the processing

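The counts of members called in NEMO against Cre mice (7 and 8), in NEMO against IKK2 mice (8 and 7) and the counts of 0 stayed within 1.5 times of these values under every alternative run, though the counts do not say that the same genes were called. Among 1854 values of single members and alternatives, 1678 kept their side of the threshold and direction, 65 lost the call and 17 gained one. Another 93 changed sign without a call in either setting, and 1 changed sign with a call. That 1 was Klf2 in NEMO against Cre mice without nephritis, 0.288 with quantile normalization.

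Counts that moved were small ones. For IKK2 against Cre mice without nephritis the count of 2 became 1 under normexp correction, the deposited log2 matrix, no filter on dim probes, every probe tested, the replicate block, a fit of only the arrays compared, a fit without the 2 arrays that stood apart (untreated Cre array 1 and nephritic Cre array 2) and slide as a block, became 0 on the slide that held both groups, 3 under the percentile taken over above-background probes and the mean of all probes (Klf2 added) and under quantile normalization (Tcf7 added), and was 1 to 2 with an array left out. With nephritis the count of 1 became 0 in a fit of only the arrays compared, which are also the only slide that held both groups. For nephritis in NEMO mice the count of 1 became 0 under normexp, the deposited matrix and only the arrays compared, 2 under the percentile taken over above-background probes, quantile normalization and slide as a block, and was 0 to 1 with an array left out (0 without array 2 of either NEMO group). For the difference of response between NEMO and Cre mice the count of 1 became 0 under every alternative that kept all replicates or left out both outlying arrays, and was 0 to 1 with 1 array left out, remaining 1 only without untreated Cre array 2 or nephritic NEMO array 1. For that between NEMO and IKK2 mice it became 0 under normexp, the matrix, no filter, the replicate block, only the arrays compared and slide as a block, 2 under the percentile taken over above-background probes and quantile normalization, and 0 to 2 with an array left out (2 without untreated IKK2 array 1, 1 without nephritic NEMO array 1, 0 without any other). The cause was not tested. Of the named genes of the lists, S1pr2, Socs3, Cd69, Tcf7l1 and Stat5b lost their NEMO call without nephritis when 1 array was left out (adjusted p 0.0524 to 0.11).

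The fit with a replicate block called 7 and 8 members in NEMO against Cre mice and 1 in each IKK2 comparison with Cre mice; the numbers share no source in the labels and did not pair the arrays. The depth of these arrays is limited by their number, and all 12 probes were above background.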

Other observations

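The other marker lists had the following means relative to the untreated Cre arrays. CD8 T cell markers (2 genes) lay at 0.52 to 0.86 in untreated NEMO and 1.02 to 1.09 in untreated IKK2 mice. The mean hides a split: 1 of the 2 was lower and 1 higher in NEMO than in Cre mice, in both conditions. Only 1 of the 2 was above background on any untreated Cre array. Plasma cell markers (3 genes) lay at 2.41 to 2.67 and 0.90 to 1.87, macrophage and monocyte markers (9 genes) at 2.29 to 2.53 and 2.13 to 2.47, and dendritic cell markers (5 genes) at 2.50 to 2.70 and 1.89 to 2.61. Neutrophil markers (5 genes) lay at 5.49 to 7.50 in nephritic NEMO mice and 4.55 to 7.29 in nephritic IKK2 mice, against 1.53 to 5.27 in nephritic Cre mice. Erythroid markers (5 genes) spread from -0.20 to 5.85 over the nephritic Cre arrays and platelet markers (4 genes) from -2.22 to 0.49. On the untreated Cre arrays, 1 of 3 plasma cell, 3 of 5 neutrophil and 3 of 5 erythroid markers were above background on any array. The means of these lists are therefore in part differences from background.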
